A study of Mus musculus with 9 samples.

Results

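Tumour necrosis factor (Tnf), 5 receptors of its family (Tnfrsf1a, Tnfrsf1b, Tnfrsf10b, Tnfrsf12a and Fas) and 2 enzymes of the cell death machinery below them (Casp8 and Ripk3) were followed in mouse liver. These 8 genes were taken by name from a table of 21470 genes, and all 8 were found in it. They and the gene lists used below were chosen with earlier results of these data known. Their shares of calls are therefore a description and no independent test. The table holds FPKM, fragments scaled to transcript length and library size, so levels can be set side by side between genes. The study has 9 whole-liver libraries in 3 groups of 3. Sham mice had a mock operation. BDL mice had their bile duct ligated, which obstructs bile flow and is a standard way to produce cholestatic liver fibrosis. BDL+LIG mice were ligated and given ligustilide, a phthalide from Angelica and Ligusticum plants. The design text gives its dose as 10 mg/kg while the titles of these libraries carry the number 20, and the dose is therefore not settled here. The sources used here give no strain, sex, age or time after surgery. Nothing in the labels says that the 3 libraries of a group came from separate mice, so p-values measure the spread between libraries, which may be technical.

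TNF is made as a membrane protein, is cut free by the protease ADAM17, and binds TNFR1 (Tnfrsf1a), which most cells carry, and TNFR2 (Tnfrsf1b), which is found largely on immune and endothelial cells. From TNFR1 a first complex signals to NF-kB and JNK, and a second can activate caspase-8 or, when caspase-8 is held back, RIPK3 and its substrate MLKL, which opens the plasma membrane in necroptosis. Fas and the TRAIL receptor DR5 (Tnfrsf10b) recruit caspase-8 through the adaptor FADD, and their engagement is a known route to hepatocyte death in cholestasis, whereas Fn14 (Tnfrsf12a), the receptor of TWEAK (Tnfsf12), has no death domain and is known for the growth of bile duct and progenitor cells.

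Library depth ran from 34815965 to 40780517 fragments, a ratio of 1.17, as recovered from the steps between FPKM values. Within a group, Pearson's r across genes between libraries was 0.964 to 0.989 for sham, 0.993 to 0.996 for BDL and 0.983 to 0.988 for BDL+LIG, and the first sham library stood furthest from its group. Albumin was between 16179 and 33912 FPKM in every library, the main secreted protein of hepatocytes. Differences between groups are given as the difference of log2(FPKM + 1) with its standard error, from limma over the 10142 genes that reached 1 FPKM in 3 or more libraries, with Benjamini-Hochberg adjusted p-values. A gene was said to rise or fall when its adjusted p was under 0.05. On this scale the changes of genes near or below 1 FPKM are understated. Of the members 7 passed this filter. Tnf did not, reaching 1 FPKM in only 2 libraries, and was tested in a fit of all 21470 genes.

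Ligation raised 6 of the 7 members tested (Tnfrsf1a, Tnfrsf1b, Tnfrsf10b, Tnfrsf12a, Fas and Ripk3), and 0 fell (limma; 0 also at an unadjusted p under 0.05, and 0 with voom on recovered fragments, which called 6.49% of tested genes lower). Among all tested genes 29.7% were called in this comparison, 22.9% higher and 6.76% lower. Tnfrsf10b and Ripk3 were under 1 FPKM in every sham library and passed the filter through the ligated libraries, where they are high, so their rises were favoured by the filter in both comparisons with sham. Both were also called in the fit of all 21470 genes. Of the 818 tested genes that were under 1 FPKM in every sham library 63.1% were called higher after ligation. Of the other 5 members 4 rose, as did 1806 of the 9324 tested genes that were not that low in sham. All BDL libraries lay above all sham libraries for those 6 genes, as for 33.7% of tested genes. The median difference of the 7 was 0.89 against 0.16 over all tested genes. Between BDL+LIG and BDL 1 member rose (Tnfrsf1b), 1 fell (Fas) and 5 did not pass the threshold, where 11.8% of all tested genes were called, 9.98% higher and 1.79% lower. The median of the members there was -0.07 and that of all tested genes 0.18. BDL+LIG livers stood above sham for 6 of the 7 members (Fas turned with 2 scalings, below) and 0 fell (limma; 0 at an unadjusted p under 0.05, 0 with voom, which called 8.56% of tested genes lower, and 1, Casp8, with median-of-ratios scaling), where 52.6% of tested genes were called, 43.7% higher and 8.92% lower, and the median was 1.06 against 0.34. All BDL+LIG libraries lay above all sham libraries for 5 of the 7, as for 45.7% of tested genes. The comparisons share libraries with one another, the BDL group being part of both of the first pair and the sham group of both comparisons with sham. The balance of calls over all genes depended on the scaling: with median-of-ratios scaling 1462 genes rose and 1466 fell after ligation, against 2322 and 686 as deposited, and the median over all tested genes moved from 0.16 to -0.06. For BDL+LIG against BDL the counts were 275 and 355 against 1012 and 182, and the median moved from 0.18 to -0.03. For BDL+LIG against sham they were 2149 and 2771 against 4430 and 905, and the median moved from 0.34 to -0.09.

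**Figure D1:**
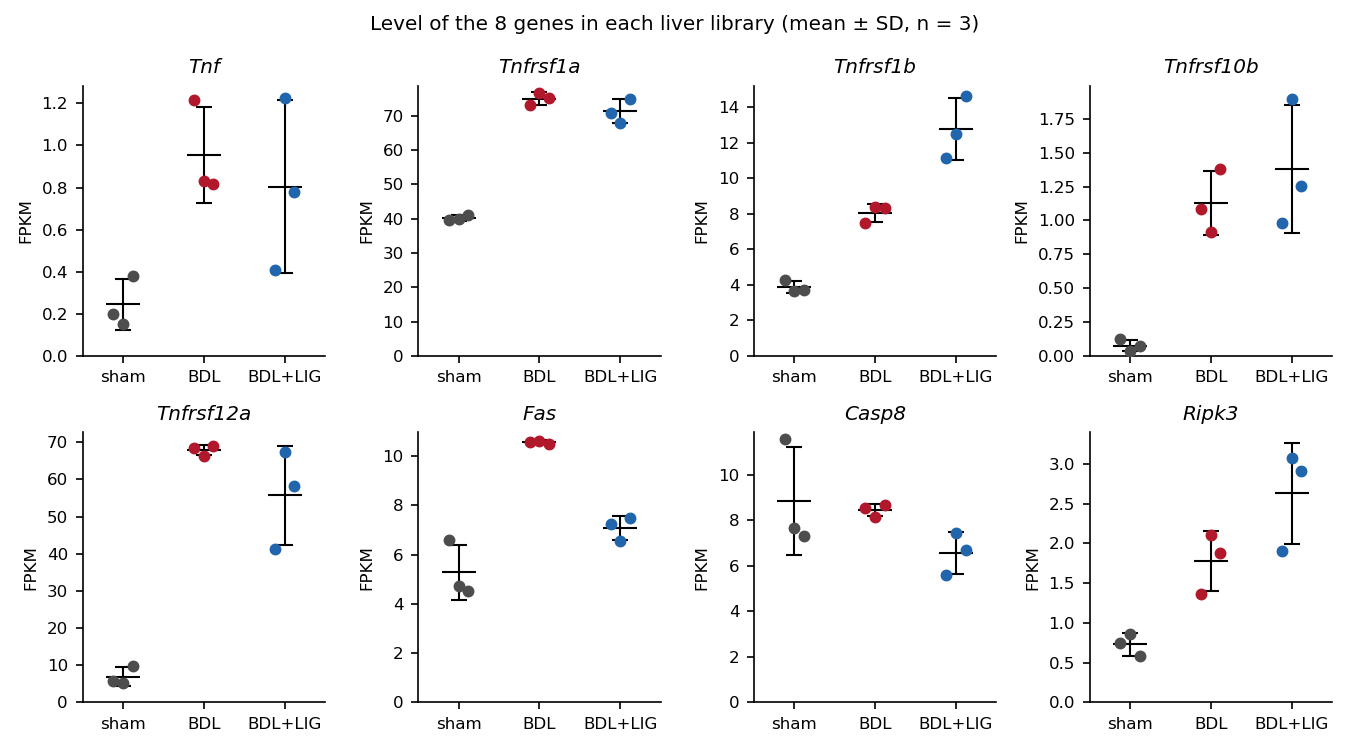
FPKM of each of the 8 genes in the 9 liver libraries, one panel a gene, with points for libraries, a bar for the mean and whiskers for the SD (n = 3). Tnfrsf12a goes from 5.24 to 9.83 FPKM in sham to 66.2 to 69.0 in BDL, Tnfrsf1b is highest in BDL+LIG, and Casp8 overlaps between sham and BDL.

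**Figure D2:**
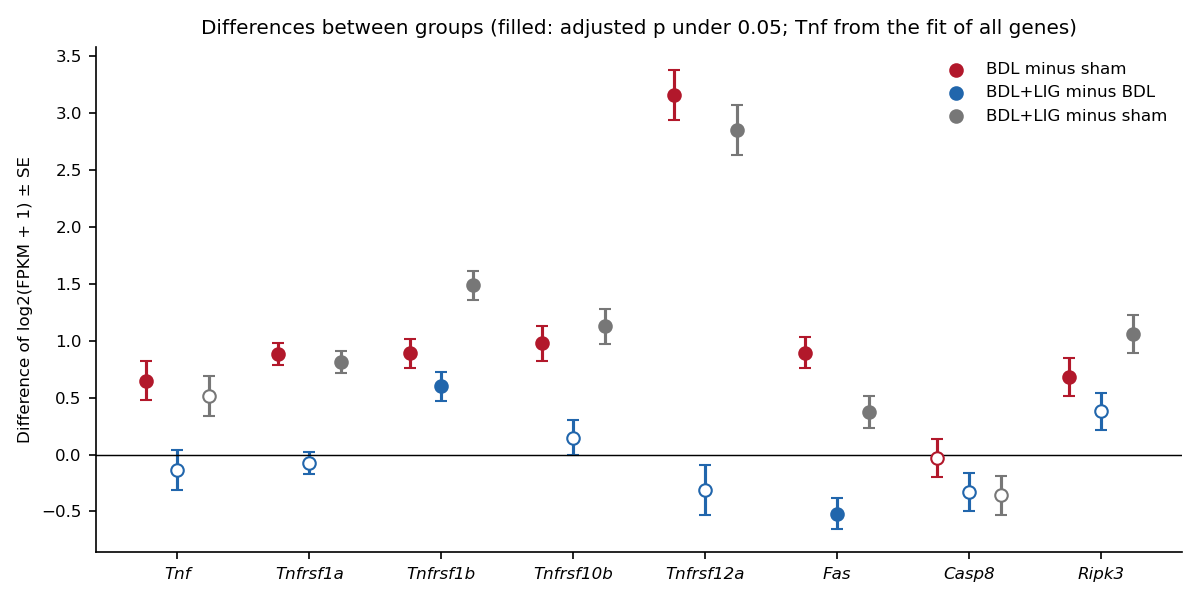
Difference of log2(FPKM + 1) between groups for the 8 genes, with the standard error as whiskers and filled points for an adjusted p under 0.05 (Tnf from the fit of all genes). The BDL and BDL+LIG points against sham lie above 0 for every gene but Casp8 (Fas in BDL+LIG turns with median-of-ratios scaling and quantile normalization), and for BDL+LIG against BDL only Tnfrsf1b and Fas are filled.

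Of the ligands, Tnf was scarce. Its level was 0.200, 0.154 and 0.381 FPKM for the sham libraries, 1.22, 0.833 and 0.816 for BDL, and 0.408, 1.23 and 0.778 for BDL+LIG. These rest on 9 to 22 fragments a library for sham, 47 to 82 for BDL and 27 to 80 for BDL+LIG. All BDL libraries lay above all sham libraries, whereas the first BDL+LIG library lay just above the highest sham library and the second at the top of the BDL range. In the fit of all genes Tnf rose after ligation by 0.65 ± 0.17 (limma, adjusted p = 0.0481; in that fit 13.0% of genes were called, 10.1% higher), a ratio of means of 3.90. The call sat at the threshold: it was kept in 8 of 18 alternatives and lost in 10, among them median-of-ratios scaling (0.58, adjusted p = 0.0597) and leaving out any single sham library or any single BDL library (0.56 to 0.73, adjusted p up to 0.143). BDL+LIG did not differ past the threshold from BDL (-0.13 ± 0.17, adjusted p = 0.717, limma; 2.9% of genes were called) or from sham (0.51 ± 0.17, adjusted p = 0.0617; 28.9% called).

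Of the other ligands of the family 3 passed the filter. Lymphotoxin beta (Ltb), the membrane anchor of the lymphotoxin heterotrimer, was 0.284 to 0.733 FPKM in sham and 3.51 to 6.16 in BDL and rose by 1.86 ± 0.22 (limma, adjusted p = 0.000171). Like Tnfrsf10b, Ltb was under 1 FPKM in every sham library and passed the filter through the ligated libraries, so its rise was favoured by the filter. Of all tested genes that low in sham 63.1% were called higher. TRAIL (Tnfsf10), the ligand of Tnfrsf10b, had group means of 0.605, 0.783 and 1.17 FPKM for sham, BDL and BDL+LIG and did not pass the threshold after ligation (0.15 ± 0.13, adjusted p = 0.426). TWEAK (Tnfsf12), the ligand of Tnfrsf12a, had means of 7.17, 8.55 and 6.45 FPKM and did not pass it either (0.24 ± 0.17, adjusted p = 0.314). Fas ligand (Fasl) did not exceed 0.236 FPKM and lymphotoxin alpha (Lta) did not exceed 0.0174 in any library. Of the 3 ligands tested 1 rose and 0 fell after ligation (0 also at an unadjusted p under 0.05 and with voom), and in BDL+LIG against BDL 0 rose and 0 fell (1 and 1 at an unadjusted p under 0.05, 0 and 0 with voom).

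Tnfrsf1a was the most abundant of the 28 receptor genes of the family in every library except the third sham library, where the lymphotoxin beta receptor (Ltbr) exceeded it. Its level was 39.4, 39.8 and 41.1 FPKM for the sham libraries, 73.1, 76.7 and 75.0 for BDL, and 70.8, 67.9 and 74.8 for BDL+LIG. The sham libraries were tightly grouped and far below all 6 ligated ones, which overlapped each other. Ligation raised it by 0.88 ± 0.10 (limma, adjusted p = 9.58e-05), a ratio of means of 1.87, and the call held in all 20 alternatives. BDL+LIG and BDL did not differ past the threshold (-0.07 ± 0.10, adjusted p = 0.628). BDL+LIG stayed above sham by 0.81 ± 0.10 (adjusted p = 0.0001, limma), except that with median-of-ratios scaling the difference was 0.26 and its adjusted p 0.18.

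Tnfrsf1b, the second TNF receptor, stepped up in both comparisons. It was 4.29, 3.68 and 3.73 FPKM for the sham libraries, 7.49, 8.37 and 8.31 for BDL, and 11.2, 12.5 and 14.6 for BDL+LIG, and no library of one group reached into another. The rise after ligation was 0.89 ± 0.13 (limma, adjusted p = 0.000676), a ratio of means of 2.07, and it was called in all 20 alternatives. The further rise in BDL+LIG over BDL was 0.60 ± 0.13 (adjusted p = 0.0222, limma), a ratio of 1.58. A separation of this kind was common, since 40.7% of tested genes had all BDL+LIG libraries above all BDL libraries. The second call was kept in 13 of 20 alternatives, with adjusted p from 0.00609 to 0.168. It was lost with median-of-ratios scaling (0.35, adjusted p = 0.102), after removal of the trend in gene length (0.30, adjusted p = 0.168), and without any 1 of the BDL libraries or BDL+LIG library 2 or 3. The third BDL+LIG library, highest in Tnfrsf1b, also had the highest summed Kupffer cell markers (825 FPKM) and monocyte and macrophage markers (700 FPKM). Of the endothelial markers all 7 tested rose in BDL+LIG against BDL, where 9.98% of all tested genes did. These 7 calls were lost without the second BDL library, where 0 tested genes were called in this comparison. In the sum of the endothelial markers the third BDL+LIG library was the lowest of its group (51.7 FPKM against 56.4 and 73.4). The part of these cells in the result was not tested. In bulk liver, more cells of a type and more RNA per cell cannot be told apart.

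Measured against Tnfrsf1a, Tnfrsf1b made up 10.9%, 9.23% and 9.06% for sham, 10.3%, 10.9% and 11.1% for BDL, and 15.8%, 18.4% and 19.6% for BDL+LIG. In this ratio sham and BDL overlapped and every BDL+LIG library lay above both. The log2 ratio of BDL+LIG exceeded that of BDL by 0.73, with an exact two-sided permutation p of 0.1 (n = 3 each; adjusted 0.133 over 12 ratio tests), the smallest p that 3 against 3 allows, while BDL and sham differed by 0.15 (exact p = 0.2, adjusted 0.24) and by 0.0043 with 1 FPKM added to both genes. With the trend in gene length removed, an alternative added after seeing the data, these differences were 0.53 and 0.13 (exact p = 0.1 each), and no pair of groups overlapped.

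Tnfrsf12a had the largest log2 difference of the 8 after ligation, and by ratio of means it came after Tnfrsf10b. It was 5.82, 5.24 and 9.83 FPKM for the sham libraries, 68.5, 66.2 and 69.0 for BDL, and 41.3, 67.5 and 58.2 for BDL+LIG. BDL libraries were nearly equal to one another and BDL+LIG libraries were spread, the first and the third lying below the BDL range and the second inside it. The rise after ligation was 3.16 ± 0.22 (limma, adjusted p = 5.95e-06), a ratio of means of 9.75, and BDL+LIG exceeded sham by 2.85 ± 0.22. Both were called in all 20 alternatives. BDL+LIG against BDL gave -0.31 ± 0.22 (adjusted p = 0.352, limma). The first BDL+LIG library was also the lowest of the ligated libraries in summed cholangiocyte markers, at 221 FPKM against 402 and 462 in the other BDL+LIG libraries and 410 to 605 in BDL. The part of cholangiocytes in this was not tested. In the mouse annotation GRCm38.p6, Tnfrsf12a overlaps Hcfc1r1, and since it is not given whether fragments were counted by strand, reads of the pair may not be separable. Hcfc1r1 itself averaged 31.3 FPKM in sham and 31.9 in BDL (0.08 ± 0.20, adjusted p = 0.807, limma).

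Summed over the 28 receptor genes, the family had 95.3 to 114 FPKM for sham, 214 to 226 for BDL and 193 to 231 for BDL+LIG. Tnfrsf12a supplied 5.43% to 8.61% of that sum for sham, 29.3% to 32.1% for BDL and 21.4% to 29.2% for BDL+LIG. Relative to Tnfrsf1a it stood at 14.7%, 13.2% and 23.9% for sham, 93.7%, 86.4% and 92.0% for BDL, and 58.3%, 99.3% and 77.8% for BDL+LIG. In BDL the Fn14 transcript thus came near to the TNFR1 transcript in FPKM. The difference in log2 ratio between BDL and sham was 2.44 (exact two-sided permutation p = 0.1, n = 3 each, adjusted 0.133), and between BDL+LIG and BDL -0.24 (exact p = 0.4, adjusted 0.436).

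**Figure D3:**
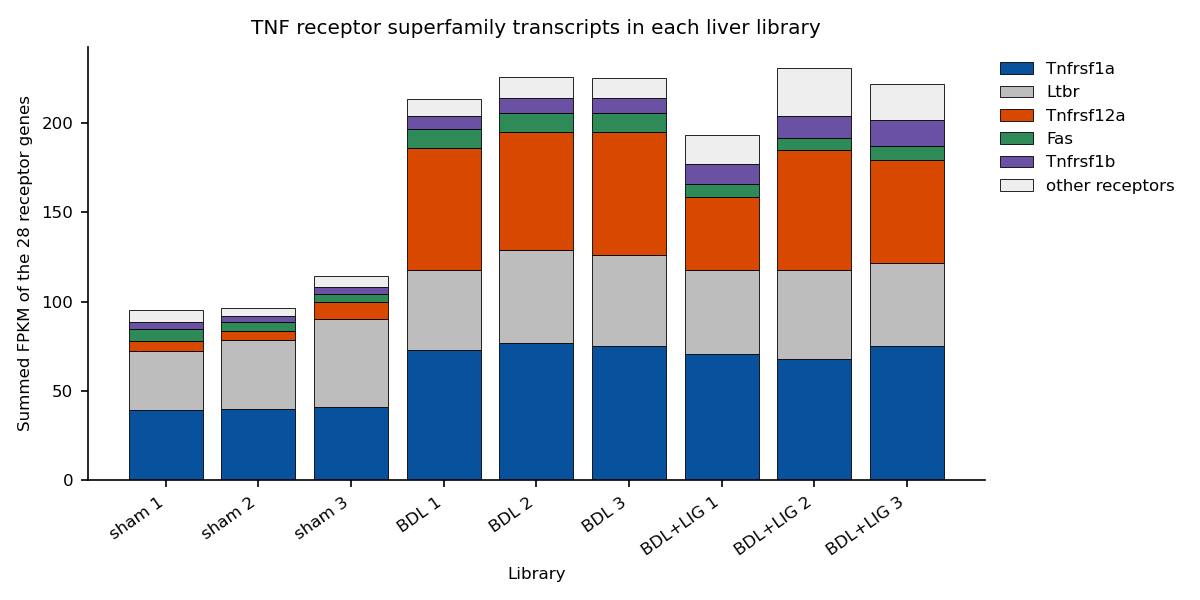
Stacked bars of the summed FPKM of the 28 TNF receptor superfamily genes in each library, split into Tnfrsf1a, Ltbr, Tnfrsf12a, Fas, Tnfrsf1b and the others. The total is 95.3 to 114 FPKM in sham and 193 to 231 in the ligated libraries, and the Tnfrsf12a segment is 5.43% to 8.61% of the bar in sham and 29.3% to 32.1% in BDL.

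Fas was the only 1 of the 5 receptors called lower in BDL+LIG than in BDL. It was 6.57, 4.74 and 4.54 FPKM for the sham libraries, 10.6, 10.6 and 10.5 for BDL, and 7.24, 6.54 and 7.46 for BDL+LIG. The BDL libraries stood above all others, and the second BDL+LIG library lay just below the first sham library. Ligation raised Fas by 0.90 ± 0.14 (limma, adjusted p = 0.00102), a ratio of means of 2.00, called in all 20 alternatives. Fas fell in BDL+LIG against BDL by 0.52 ± 0.14 (limma, adjusted p = 0.0406), a ratio of 0.670, where 10.5% of tested genes had all BDL+LIG libraries below all BDL libraries. This call was kept in 10 of 20 alternatives, with changes of -0.75 to -0.40 and adjusted p from 0.00511 to 0.137. It was lost without any 1 of the 6 BDL and BDL+LIG libraries and after rescaling to TPM (-0.40, adjusted p = 0.131), and it was kept with median-of-ratios scaling (-0.75, adjusted p = 0.0121). Against sham, Fas in BDL+LIG was higher by 0.38 ± 0.14 (adjusted p = 0.0426, limma), a call kept in 5 of 20 alternatives and turned to -0.10 by median-of-ratios scaling and to -0.049 by quantile normalization.

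Tnfrsf10b was almost silent in sham. Its level was 0.121, 0.0355 and 0.0721 FPKM there (14, 4 and 8 fragments), 1.09, 0.912 and 1.38 for BDL, and 0.982, 1.90 and 1.25 for BDL+LIG (118 to 238 fragments in the ligated libraries). Every ligated library lay above every sham library, and BDL and BDL+LIG overlapped. The rise after ligation was 0.98 ± 0.16 (limma, adjusted p = 0.00116) and the ratio of means was 14.8, which the log2(FPKM + 1) scale understates, since voom on the recovered fragments gave 3.92. The call held in all 19 alternatives run. BDL+LIG against BDL gave 0.15 ± 0.16 (adjusted p = 0.534, limma), and BDL+LIG exceeded sham by 1.13 ± 0.16 (adjusted p = 0.000242).

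The promoter sequences of Fas and Tnfrsf12a, the receptor that fell in BDL+LIG and the one with the largest rise after ligation on the log2(FPKM + 1) scale (Tnfrsf10b rose more by ratio of means and with voom), are shown with that of Tnfaip3, the A20 feedback inhibitor of NF-kB, as a pathway gene that holds both motifs searched. Each is the run of 250 bases before the transcription start, 5′ to 3′ on the gene's strand, from RefSeq on GRCm38.p6, an earlier build than the GRCm39 named for the study. Capitals mark matches to the AP-1 motif TGANTCA or to the kappaB consensus. Fas lies at chr19:34290409-34290658 on the plus strand, Tnfrsf12a at chr17:23677450-23677699 and Tnfaip3 at chr10:19015411-19015660 on the minus strand.
Fas: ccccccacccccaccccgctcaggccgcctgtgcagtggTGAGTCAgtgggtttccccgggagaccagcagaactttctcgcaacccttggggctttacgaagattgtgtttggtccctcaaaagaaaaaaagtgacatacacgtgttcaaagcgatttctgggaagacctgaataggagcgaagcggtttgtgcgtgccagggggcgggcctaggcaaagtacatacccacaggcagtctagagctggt
Tnfrsf12a: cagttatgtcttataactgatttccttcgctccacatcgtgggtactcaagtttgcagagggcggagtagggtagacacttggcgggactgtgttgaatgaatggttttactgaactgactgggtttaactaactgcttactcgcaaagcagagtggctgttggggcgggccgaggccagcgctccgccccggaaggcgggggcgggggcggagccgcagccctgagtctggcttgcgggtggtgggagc
Tnfaip3: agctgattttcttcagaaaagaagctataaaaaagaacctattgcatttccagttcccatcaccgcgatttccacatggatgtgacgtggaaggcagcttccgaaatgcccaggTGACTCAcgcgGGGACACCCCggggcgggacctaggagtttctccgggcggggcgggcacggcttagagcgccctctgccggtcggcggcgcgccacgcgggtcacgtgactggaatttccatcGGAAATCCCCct
Fas held TGAGTCA at bases -211 to -205 from the start, and Tnfrsf12a held no match to either motif. Tnfaip3 held TGACTCA at -136 to -130 and kappaB matches at -125 to -116 and -12 to -3. A second start listed for Tnfaip3, with the window chr10:19011964-19012213 on the minus strand, held 0 matches to either motif. Both strands were searched, and TGANTCA read on the other strand is again TGANTCA. Of the 7 members with a promoter entry 1 held the AP-1 motif and 0 held the kappaB motif, whereas 6.75% and 3.9% of all 32851 windows of this length did. In the list of NF-kB subunits and targets 10 of 16 genes with an entry held a kappaB match. That list was chosen by its link to NF-kB, so its share is no test of these data. The counts are of genes, which can have more than 1 window, as Tnfaip3 does, whereas the percentages are of windows. A match is a run of letters, not a measured binding site, and a window without one says nothing of sites elsewhere.

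Casp8, the initiator caspase of death receptor signalling, did not follow the receptors. It was 11.6, 7.67 and 7.30 FPKM for the sham libraries, 8.56, 8.17 and 8.68 for BDL, and 5.61, 7.45 and 6.69 for BDL+LIG. Sham and BDL overlapped, and all BDL+LIG libraries lay below all BDL libraries. Ligation gave -0.03 ± 0.17 (limma, adjusted p = 0.909), and without the first sham library, the highest in Casp8, 0.16. BDL+LIG against BDL gave -0.33 ± 0.17 (adjusted p = 0.209, limma), called lower in 4 of 20 alternatives, among them median-of-ratios scaling (-0.56, adjusted p = 0.0289) and the fit without the first sham library (adjusted p = 0.0478). BDL+LIG against sham gave -0.36 ± 0.17 (adjusted p = 0.098, limma), called in 3 of 20.

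Cflar encodes c-FLIP, the catalytically inactive relative of caspase-8 that restrains it, and averaged 4.69 FPKM for sham, 4.69 for BDL and 6.91 for BDL+LIG. Its difference between BDL+LIG and BDL was 0.47 ± 0.15 (limma, adjusted p = 0.0586), with all BDL+LIG libraries above all BDL libraries. The ratio of Casp8 to Cflar was 2.05, 1.64 and 1.96 for sham, 1.96, 1.71 and 1.76 for BDL, and 0.874, 0.988 and 0.988 for BDL+LIG. Thus the Casp8 level exceeded that of Cflar in all 6 sham and BDL libraries and fell short of it in all 3 BDL+LIG libraries. The log2 ratio was lower in BDL+LIG than in BDL by -0.93 and than in sham by -0.98, each with an exact two-sided permutation p of 0.1 (n = 3 each, adjusted 0.133 over the 12 ratio tests). A single scaling factor for each library leaves such a ratio as it is, but a shift that depends on gene length does not, and Cflar is 2.90 times as long as Casp8 by the recovered lengths. In the BDL+LIG libraries the longest genes deviated in median from their mean over all libraries by 0.23 to 0.34 (log2), and in BDL by -0.13 to -0.0028. With the trend in gene length removed the differences were -0.77 against BDL and -0.89 against sham (exact p = 0.1 each), again without overlap between the groups. The log2 ratio in BDL+LIG was then -0.054 to 0.066, so that Casp8 no longer fell short of Cflar in all 3 libraries.

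Ripk3, the kinase of necroptosis, rose after ligation from a low level. It was 0.742, 0.862 and 0.583 FPKM for the sham libraries, 1.36, 2.1 and 1.88 for BDL, and 1.91, 3.07 and 2.91 for BDL+LIG. All BDL libraries lay above sham, and the first BDL+LIG library lay inside the BDL range. The rise was 0.68 ± 0.17 (limma, adjusted p = 0.0118), a ratio of means of 2.44, lost only without the second BDL library (0.60, adjusted p = 0.0602). BDL+LIG against BDL gave 0.38 ± 0.17 (adjusted p = 0.149, limma), and against sham 1.06 ± 0.17 (adjusted p = 0.000528), called in all 19 alternatives run. Mlkl, the RIPK3 substrate, averaged 1.38, 4.03 and 4.22 FPKM and rose after ligation by 1.08 ± 0.16 (adjusted p = 0.000813, limma). Ripk3 overlaps the gene model Gm32092 in GRCm38.p6, which did not exceed 0.210 FPKM in any library.

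The ratio of Ripk3 to Casp8 was 6.42%, 11.2% and 7.98% for sham, 15.9%, 25.7% and 21.7% for BDL and 34.0%, 41.3% and 43.6% for BDL+LIG, with no overlap between any pair of groups. The log2 ratio differed by 1.32 between BDL and sham and by 0.93 between BDL+LIG and BDL, each with an exact two-sided permutation p of 0.1 (n = 3 each, adjusted 0.133). With 1 FPKM added to both genes, as for the differences of single genes, these were 0.71 and 0.71, and that between BDL+LIG and sham was 1.42 in place of 2.24. The size of these differences thus depends on the pseudocount. Removing the length trend gave 1.35, 1.04 and 2.39 in the same order.

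**Figure D4:**
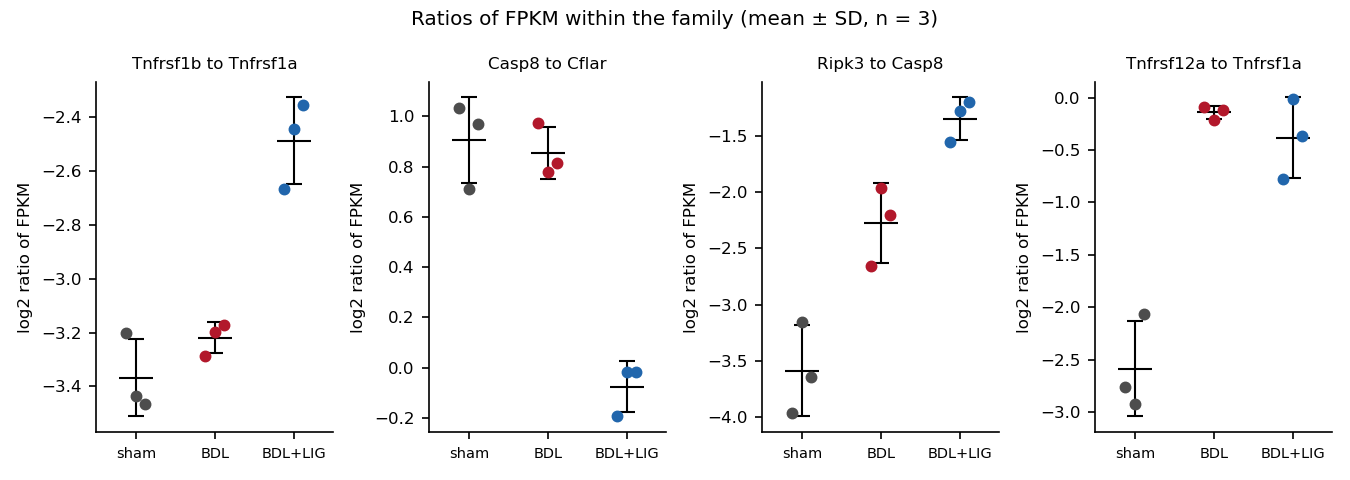
Log2 ratios of FPKM within a library for 4 pairs of genes in sham, BDL and BDL+LIG, with points for libraries, a bar for the mean and whiskers for the SD (n = 3); the vertical axes differ and do not start at 0. Casp8 to Cflar averages 0.90 for sham, 0.85 for BDL and -0.08 for BDL+LIG, and for Ripk3 to Casp8 no pair of groups overlaps.

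The other genes of the pathway were read from 8 lists of 136 genes, 94 of them tested. Like the members, these lists were chosen with earlier results of these data known, so the shares below describe them only. After ligation 43 of the 94 rose and 1 fell (45.7% and 1.06%, against 22.9% and 6.76% of all tested genes), with a median of 0.49. Of these 43 genes 14 were under 1 FPKM in every sham library and passed the filter through the ligated libraries. In BDL+LIG against BDL 12 rose and 2 fell (12.8% and 2.13%), shares near the 9.98% and 1.79% of all tested genes, with a median of 0.21 against 0.18. These 14 calls between BDL+LIG and BDL were all lost when any 1 BDL library was left out, and 5 genes passed with median-of-ratios scaling. Of the receptor list 10 were tested, and 6 rose and 0 fell after ligation (0 at an unadjusted p under 0.05 and with voom). The member receptors make up 5 of these 6 and the death receptor Tnfrsf21, like Tnfrsf10b under 1 FPKM in every sham library, is the other, at 0.675 ± 0.148 FPKM in sham and 2.34 ± 0.321 in BDL (SD, n = 3). In BDL+LIG against BDL 5 of the 10 rose and 1, Fas, fell, where 9.98% and 1.79% of all tested genes did. Of the 5, Tnfrsf11b and the nerve growth factor receptor Ngfr were under 1 FPKM in every sham and BDL library and were tested only because the BDL+LIG libraries exceeded it, so the filter fixed part of this count. Of the other 8 receptors 3 rose. Among all tested genes not under 1 FPKM in every BDL library, 895 of 9742 rose. The decoy receptor osteoprotegerin (Tnfrsf11b) rose by 0.90 ± 0.16 (limma, adjusted p = 0.0131), from 0.156 to 0.359 FPKM in the BDL libraries to 1.07 to 1.99, and Tnfrsf21 by 0.99 ± 0.20 (adjusted p = 0.0174), to 3.99 to 7.81 FPKM.

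Of the shedding machinery that frees TNF and its receptors 4 of 6 genes rose after ligation and 0 fell (0 at an unadjusted p under 0.05 and with voom), with a median of 0.73. They were the proteases Adam10 (1.09 ± 0.17, limma adjusted p = 0.00116) and Adam17 (0.68 ± 0.14, adjusted p = 0.00399) and the iRhom partners Rhbdf2 (0.77) and Rhbdf1 (0.93). Of the 6, 0 passed the threshold between BDL+LIG and BDL (limma, 3 at an unadjusted p under 0.05, 0 with voom). In the first receptor complex 3 of 22 rose and 1 fell after ligation, a share of rises below the 22.9% of all tested genes, with a median of 0.21 against 0.16. Of the 3, Tnfaip3 and Traf3 were under 1 FPKM in every sham library. Tnfaip3, whose promoter is printed above, went from 0.167 to 0.225 FPKM in sham to 4.48 to 5.24 in BDL (2.28 ± 0.13, adjusted p = 2.75e-06). Its partner Tnip1 rose by 1.29 and the adaptor Traf3 by 0.60, while Otulin, which removes linear ubiquitin, fell by 0.54. Ripk1, the kinase shared by survival and death signals, averaged 1.18, 1.59 and 2.1 FPKM and did not pass the threshold after ligation (0.26 ± 0.14, adjusted p = 0.176, limma).

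Of the death-inducing and apoptosis genes 4 of 16 rose after ligation and 0 fell (0 at an unadjusted p under 0.05 and with voom), with a median of 0.18. The share of rises is near the 22.9% and the median near the 0.16 of all tested genes. Among the 4 were the survival genes Bcl2l1 (0.94 ± 0.12, limma adjusted p = 0.000269) and Mcl1 (0.89), which restrain mitochondrial apoptosis, and the pore-forming Bak1 (0.71). The call of Bak1 was lost with median-of-ratios scaling (0.45). The adaptor Fadd averaged 2.97, 3.40 and 4.11 FPKM and did not pass the threshold after ligation (0.14 ± 0.14, adjusted p = 0.473, limma). In BDL+LIG against BDL the pro-apoptotic Bcl2l11 (0.53, adjusted p = 0.02, limma) and the initiator Casp9 (0.67, adjusted p = 0.0252) rose, both lost with median-of-ratios scaling (0.38 and 0.44). Necroptosis and pyroptosis genes rose after ligation in 3 of 7 cases, Mlkl, Ripk3 and the pyroptosis pore Gsdmd (0.37), where 22.9% of all tested genes rose. The call of Gsdmd was lost with median-of-ratios scaling (0.09), which leaves 2 of 7. With that scaling 1462 of the 10142 tested genes rose after ligation. Of the 2, Ripk3 was under 1 FPKM in every sham library.

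Among the 8 lists the NF-kB list had the highest share of rises, 17 of 20 with a median of 1.04 after ligation, where 22.9% of all tested genes rose. With median-of-ratios scaling 15 of 20 rose, where 1462 of the 10142 tested genes did. Of the 17, 5 were under 1 FPKM in every sham library, Cxcl2 among them. Of the 14 genes that were not, 12 rose, where 1806 of 9324 such genes did among all tested. The 17 included the chemokines Ccl2 (3.74 ± 0.23, limma adjusted p = 2.86e-06) and Cxcl2 (2.55 ± 0.22), the adhesion molecule Icam1 (1.98 ± 0.12) and the inhibitor Nfkbie (1.47 ± 0.12). In BDL+LIG against BDL 2 rose, Rel (0.44) and Vcam1 (0.79), and Cxcl2 fell by 0.86 (adjusted p = 0.0339, limma). With median-of-ratios scaling neither rise was called (0.30 and 0.53), and Rel, like Bcl2l11 above, was under 1 FPKM in every sham and BDL library. The fall of Cxcl2 was not called with a pseudocount of 0.1 (limma adjusted p = 0.0604), without the filter (0.0919) or with the length trend removed (0.0898). It was also lost without any 1 of the BDL or BDL+LIG libraries. The AP-1 and JNK list had 5 of 11 risen after ligation, against 22.9% of all tested genes. Among the 5 were Atf3 (2.66 ± 0.16, limma adjusted p = 2.85e-06), Jun (2.25 ± 0.17) and Fos (2.19 ± 0.22). Of the 5, Atf3, Fos and Fosl2 were under 1 FPKM in every sham library. Of the 8 genes of the list that were not, 2 rose, near the share of all tested genes that were not (1806 of 9324). In BDL+LIG against BDL Fosl2 was the only 1 to rise (0.57, adjusted p = 0.0283, limma). Its call was lost with median-of-ratios scaling (0.36, adjusted p = 0.0991), quantile normalization (0.32, adjusted p = 0.112) and the length trend removed (0.22, adjusted p = 0.327).

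**Figure D5:**
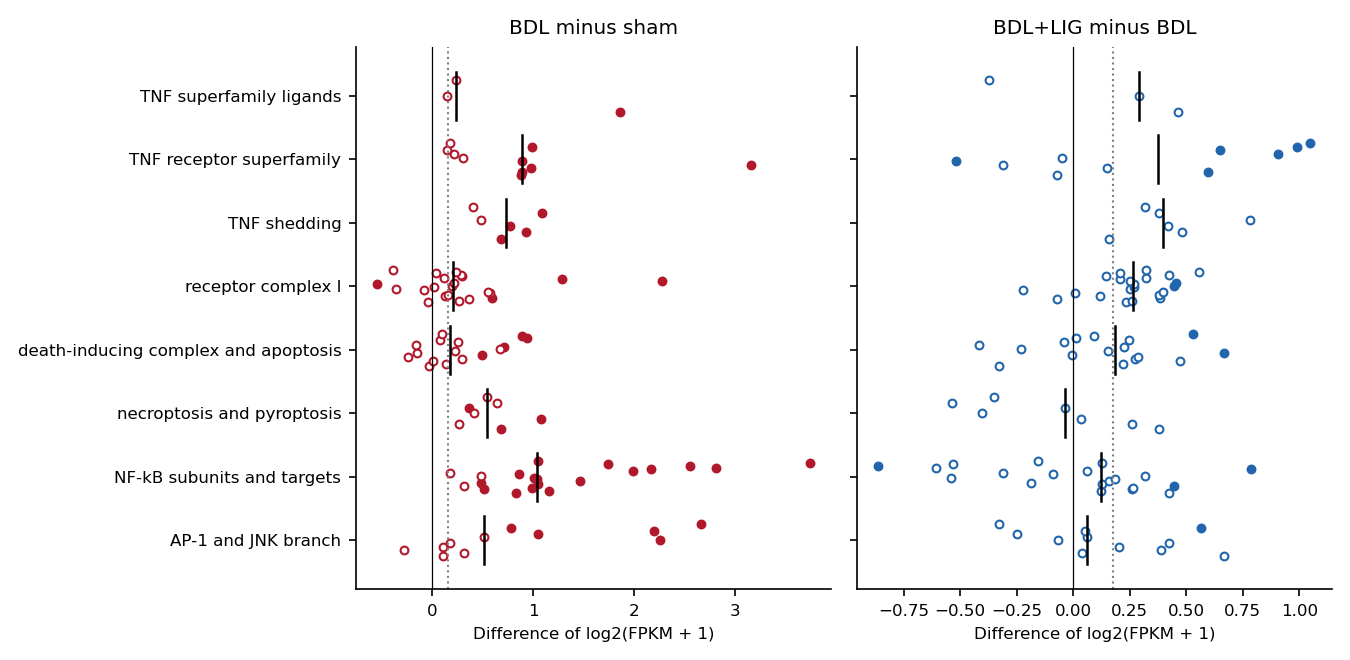
Difference of log2(FPKM + 1) for each tested gene of 8 pathway lists, BDL minus sham on the left and BDL+LIG minus BDL on the right; filled points have an adjusted p under 0.05, vertical bars are list medians and the dotted line is the median of all tested genes. After ligation the NF-kB list lies furthest right of the 0.16 of all genes, with a median of 1.04, and on the right-hand side most points are open.

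Markers of other liver cells moved in the same comparisons. The 8 Kupffer cell markers summed to 71.3 to 144 FPKM for sham, 285 to 417 for BDL and 376 to 825 for BDL+LIG, and all 8 rose after ligation, where 22.9% of all tested genes did. The 12 monocyte and macrophage markers summed to 45.3 to 65.8, 332 to 457 and 337 to 700 FPKM, and 11 rose. Neutrophil markers summed to 4.24 to 6.55, 43.3 to 47.7 and 16.2 to 40.8 FPKM, cholangiocyte markers to 19.9 to 36.2, 410 to 605 and 221 to 462. All 4 neutrophil and all 7 cholangiocyte markers tested rose after ligation. Stellate cell and myofibroblast markers ran from 14.8 to 41.2 in sham to 74.3 to 93.0 in BDL and 110 to 213 in BDL+LIG, and 6 of 10 rose after ligation. Endothelial markers were 21.4 to 27.2, 30.4 to 31.8 and 51.7 to 73.4 FPKM. Of the 7 tested 1 rose after ligation, and all 7 rose in BDL+LIG against BDL, where 9.98% of all tested genes did. Without the second BDL library 0 of the 10142 tested genes were called in the latter comparison, so these 7 calls were lost. Without the first and without the third, 40 and 54 genes were called. T and NK cell markers (2.09 to 4.11, 2.98 to 4.09 and 4.52 to 17.3) and B and plasma cell markers (1.10 to 3.30, 2.00 to 2.35 and 5.29 to 8.48) were highest in BDL+LIG. Hepatocyte markers summed to 50152 to 58846, 30349 to 37217 and 36514 to 45649 FPKM, and after ligation 1 of 8 rose and 2 fell. No marker was at 0 in all libraries of a group. The part of these cell types in the levels of the 8 genes was not tested.

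The genes whose levels ran most like those of the members over the 9 libraries are given as a description, since the libraries fall into 3 groups and share their depth. Tnfrsf12a ran with Jun and S100a11 (Pearson's r 0.995 with each). Tnfrsf1a ran with Tm4sf4 (0.998) and Rdh9 (0.996), and Tnfrsf1b with Tmbim1 (0.997) and Psap (0.996). Fas ran with Acat3 (0.973) and with the interleukin-1 receptor Il1r1 (0.956). Tnfrsf10b ran with Haus8 (0.995), Ripk3 with Actr3 (0.983), Casp8 with Med7 (0.979) and Tnf with Scamp4 (0.955).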

How the data were processed

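RNA of mouse liver was sequenced in 9 libraries, 3 each from sham, BDL and BDL+LIG mice. Per the labels' protocols, RNA was extracted with TRIzol and libraries were made with the VAHTS Universal V6 kit. Per the submitters' processing notes, fastp, HISAT2 2.1.0, DESeq2 and build GRCm39 were used. The annotation, counting program and strand setting were not given in the sources used here. FPKM were deposited by the authors in 1 table of 21470 genes, whose columns were tied to the libraries by their titles.

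Members and gene lists were chosen with earlier results of these data known. Whole fragments were recovered from the steps between FPKM values for 19449 of 19449 genes above 0 in at least 2 libraries (100.0%, within 0.02 fragments). On simulated data 99.72% of 19394 genes came back exactly. They gave depth, gene length and the voom alternative. Using R 4.3.3, limma 3.58.1 (lmFit, then eBayes with trend) was run on log2(FPKM + 1) for the 9 libraries together, with a filter of 1 FPKM in 3 libraries. It was tested on simulated data of 10142 genes for BDL against sham, where 48% of 50 genes raised 2-fold and 100% of 50 raised 4-fold were called. Of 50 genes lowered 2-fold 40% were called, and of 50 lowered 4-fold 98%. The changed genes were drawn from those with more fragments in sham than Tnf or Tnfrsf10b had, and no trend in gene length was simulated. The simulation therefore does not cover genes as low as these 2 or a shift with gene length. Ratios were tested by exact two-sided permutation. Counting error alone gives small intervals for the abundant genes, and Tnf and Tnfrsf10b in sham rest on few fragments. Named pathway genes were those past the threshold with the smallest p in each list, up to 4 after ligation and up to 3 for BDL+LIG against BDL, plus fixed partners of the members. Of these, 1 gene that this rule names is not reported here. The most alike gene or genes were named by Pearson's r over the 9 libraries. Genes overlapping a member, Ngfr and Tnfrsf21 in BDL were chosen after their values were seen. Same-numbered libraries did not vary together throughout (r of deviations -0.13 to 0.28), so numbers were not treated as pairs. Differently numbered libraries of different groups gave -0.30 to 0.14, so pairing is not excluded. Alternatives were other pseudocounts, filters, scalings, a replicate block, a gene length trend removed, voom and leaving out each library.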

Additional observations from a re-analysis of the deposited data

How the results depend on the processing

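Of the calls of the members against sham, those of Tnfrsf1b, Tnfrsf10b and Tnfrsf12a held under every alternative run in both comparisons, while those between BDL+LIG and BDL (Tnfrsf1b and Fas) did not. Every library left out of the BDL group ended both of the latter calls. Over all 10142 genes, 3008 passed the threshold after ligation and 1838 with a filter of a mean of at least 5 FPKM, which tests fewer genes. For BDL+LIG against BDL 1194 passed, and 623 without the filter, 575 with the mean of at least 5 FPKM, 630 with median-of-ratios scaling, 2056 after rescaling to TPM, 3433 with only the 2 groups compared, and 498 with the trend in gene length removed. For BDL+LIG against sham 5335 passed, and 2765 with the mean of at least 5 FPKM. Leaving out 1 library gave 1894 to 4668, 0 to 3144 and 4505 to 6922 genes in these comparisons. The 0 came without the second BDL library, where limma called 2317 at an unadjusted p under 0.05, and the 3144 without the first sham library. Removing the length trend bears on sham and BDL+LIG, whose longest genes deviated in median by -0.40 to 0.05 and 0.23 to 0.34 (log2). Beyond what is said here, the cause was not tested.

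Of the 8 genes, the number that rose in BDL+LIG against BDL was 1, and 0 with median-of-ratios scaling and with the length trend removed. The number that fell was 1, and 0 with a pseudocount of 0.1, without the filter and after rescaling to TPM, and 2 (Fas and Casp8) with median-of-ratios scaling, quantile normalization and the length trend removed. In BDL+LIG against sham 1 fell (Casp8) under those 3. Without 1 library 5 to 6 rose and 0 fell after ligation, 0 to 1 rose and 0 to 2 fell in BDL+LIG against BDL, and 5 to 6 rose and 0 fell against sham. Of the pathway lists 44, 14 and 67 genes passed in the 3 comparisons. With a mean of at least 5 FPKM these were 26, 3 and 32. For BDL+LIG against BDL they were 8 with a pseudocount of 0.1, 5 without the filter, 5 with median-of-ratios scaling, 33 with only the 2 groups compared and 4 with the length trend removed. Without 1 library they were 39 to 57, 0 to 30 and 59 to 75.

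The labels do not say that replicate numbers pair the libraries, and pairing is not excluded. With the replicate block 2782, 742 and 5125 genes passed in the 3 comparisons, the pathway lists gave 7 for BDL+LIG against BDL, and 0 of the 8 genes fell there, Fas having an adjusted p of 0.0611.

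Directions that turned were all of differences short of the threshold but one. Fas in BDL+LIG against sham, called as deposited, became -0.10 with median-of-ratios scaling and -0.049 with quantile normalization. For BDL+LIG against BDL, Tnfrsf10b became -0.0012, -0.091 and -0.052 with median-of-ratios scaling, quantile normalization and the length trend removed, and without 1 library it ran from -0.0034 to 0.27. Tnfrsf1a became 0.076 with TPM, and Tnf without 1 library ran from -0.30 to 0.032. After ligation Casp8 became 0.050 with TPM and without 1 library ran from -0.14 to 0.16. Tnfsf10 became -0.20 with quantile normalization and -0.065 with the length trend removed, and Tnfsf12 -0.024 with median-of-ratios scaling. Fadd became -0.086, -0.073 and -0.082 and Cflar -0.23, -0.19 and -0.15 with median-of-ratios scaling, quantile normalization and the length trend removed. Cflar ran from -0.11 to 0.13 without 1 library, and it was -0.02 without the third BDL library.

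Without 1 library the log2 ratio differences ran as follows for BDL against sham, BDL+LIG against BDL and BDL+LIG against sham. Tnfrsf1b to Tnfrsf1a gave 0.10 to 0.23, 0.66 to 0.82 and 0.81 to 0.97. Casp8 to Cflar gave -0.15 to 0.0143 (the last without the first sham library), -0.97 to -0.87 and -1.08 to -0.92. Ripk3 to Casp8 gave 1.13 to 1.53, 0.74 to 1.08 and 2.06 to 2.46. Tnfrsf12a to Tnfrsf1a gave 2.27 to 2.70, -0.43 to -0.04 and 2.01 to 2.46. With the length trend removed, added after seeing the data, the BDL+LIG against BDL difference of Tnfrsf12a to Tnfrsf1a turned to 0.0040. Depth limits Tnf and Tnfrsf10b, which rest on 4 to 22 fragments a library in sham.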

Other observations

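Several receptors of the family stayed below the filter and were not part of the tests above. The mouse decoy TRAIL receptor Tnfrsf23 was 0.056 to 0.068 FPKM in sham, 0.618 to 0.637 in BDL and 0.440 to 0.818 in BDL+LIG. The RANK receptor Tnfrsf11a was 0.087 to 0.136, 0.393 to 0.664 and 0.758 to 0.949 FPKM, and the ectodysplasin A2 receptor Eda2r was 0.000 to 0.109, 0.393 to 0.483 and 0.322 to 1.02. In each of the 3 every ligated library lay above every sham library. Tnfrsf4, the OX40 receptor of activated T cells, went the other way, at 0.286 to 0.730 FPKM in sham, 0.000 to 0.134 in BDL and 0.079 to 0.138 in BDL+LIG. These genes were chosen after their values were seen, and no test is given.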
